A study of Bos taurus with 2 samples.

Results

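The genes described here make and handle lipids. They are 19 sterol genes, which build cholesterol from acetyl-CoA or control that route, and 24 fatty acid and storage genes, which make, modify, store, carry or release fatty acids. Members were chosen by gene name: every non-control probe whose array name, or the gene of whose RefSeq accession, was on the list was taken, older symbols included. This gave 119 of the 43653 distinct probes and 43 of the 16959 genes named on the array.

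Whole blood of Holstein cattle (Bos taurus) was profiled on a bovine oligonucleotide microarray with Cy3-labelled RNA. The study had 2 groups of 1 array each, low feed efficiency, which corresponds to high residual feed intake, and high feed efficiency. The labels give no age, sex, diet or treatment, and whether a specimen came from a single animal or a pool is not stated there. Residual feed intake is actual intake minus the intake predicted from body size and output, and the series title names hormonal regulation related to it as the subject.

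Cholesterol synthesis starts with the mevalonate route, which turns acetyl-CoA into isoprene units and joins them to farnesyl diphosphate, and goes on through squalene and lanosterol to cholesterol. When membranes run low in sterol, the transcription factor encoded by SREBF2 is released from the endoplasmic reticulum and raises transcription of most of these enzymes together, and INSIG1 holds it back when sterol is plentiful. Fatty acid synthesis starts from the same acetyl-CoA and is driven in large part by SREBF1. In cattle the main site of new fatty acid synthesis is adipose tissue, and the mammary gland during lactation, while blood cells use lipids mostly for membranes, signalling and, in some leukocytes, droplets.

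Every difference below is on the log2 scale, low minus high feed efficiency, and was taken after each array's intensities were divided by its 75th percentile. Those percentiles were 98 on the low and 81 on the high efficiency array, so an intensity ratio of 1.21 stands for a difference of 0. The median over all 10339 genes above background on both arrays was -0.04, with quartiles at -0.22 and 0.15, and "above" or "below all genes" means relative to that median. Each group has 1 array, so no difference was tested and none carries a p-value. Replicate spots of a probe varied in this difference with an SD of 0.10 for bright and 0.23 for dim probes, split at the median signal of genes. These SDs measure spot error only and rest on few probes, 12 bright and 24 dim ones with replicate spots above background. A gene is called past spot error here when it lay more than 2 such SDs from the median of all genes. In whole blood, fewer cells of a type and less RNA per cell cannot be told apart.

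Of the 43 genes, 37 had a probe above background on both arrays (18 sterol and 19 fatty acid and storage genes), 1 on the low efficiency array only, and 5 on neither array. Most of the 37 lay close to all genes. None was 2-fold apart, where 0.938% of all genes were, and 1 was at least 1.5-fold apart, HSD17B7, where 5.82% of all genes were. Counted against all genes, 20 members lay above and 17 below. Past spot error were 7 members on the higher side (background 13.7%) and 6 on the lower side (background 15.0%). The higher ones were HMGCS1, IDI1, FDFT1, CYP51A1, HSD17B7 and DHCR7 of cholesterol synthesis and DGAT2 of triglyceride assembly. The lower ones were SREBF2, EBP, FASN, AGPAT2, PNPLA2 and FADS2. FDFT1, EBP and FADS2 lay only just past that limit.

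**Figure D1:**
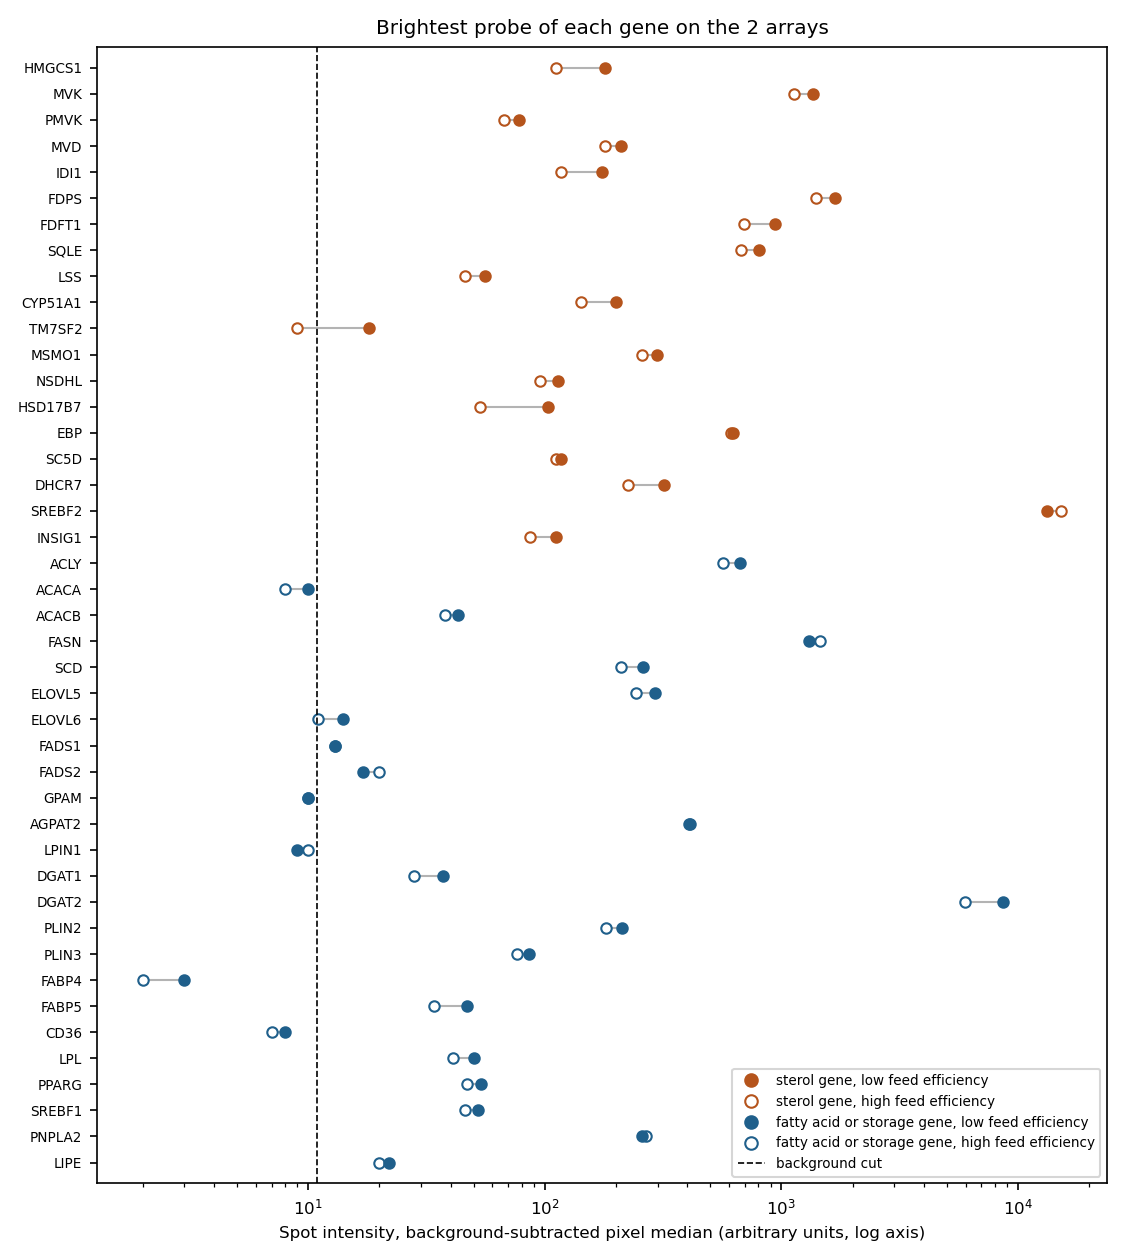
Spot intensity (horizontal, log axis, arbitrary units) of the brightest probe of each of the 43 genes, with filled circles for low and open circles for high feed efficiency, orange for sterol and blue for fatty acid and storage genes; the dashed line is the background limit of 10.9. Intensities can be compared within a row only, since probes differ in brightness; most filled circles lie slightly to the right because the low efficiency array was brighter, whereas SREBF2, FASN, FADS2, AGPAT2 and PNPLA2, among genes above the limit, read higher in high feed efficiency, and ACACA, GPAM, LPIN1, FABP4 and CD36 lie left of the line on both arrays.

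Among the 6 enzymes of the mevalonate route, all measured, 2 were higher in low feed efficiency past spot error (background 13.7%). The other 4 lay within spot error of all genes. Their median was -0.01. HMGCS1, which condenses acetyl-CoA units to HMG-CoA, read 180 on the low and 112 on the high efficiency array, a difference of 0.41 or 1.33-fold. Its second probe read 18 against 17, a difference of -0.19, so the HMGCS1 probes above background on both arrays did not run the same way. Another HMGCS1 probe, at 15 against 9, was above background on the low efficiency array only. IDI1, the isomerase that makes the reactive isoprene unit, read 175 on the low and 117 on the high efficiency array, a difference of 0.31. The second IDI1 probe read 76 against 46, a difference of 0.45, on the same side and larger.

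The remaining mevalonate enzymes showed little separation of the arrays. FDPS, which joins isoprene units to farnesyl diphosphate, read 1679 on the low and 1406 on the high efficiency array, a difference of -0.02, and its second probe had -0.07. The mevalonate kinase MVK read 1363 against 1134, a difference of -0.01, while its dimmer probes read 22 on both arrays and 11 against 12. MVD, the decarboxylase, read 209 against 179 (-0.05), and its other probe read 75 on both arrays (-0.27). These dimmer MVK and MVD probes were all below their brightest probe. PMVK, which adds the second phosphate to mevalonate, read 78 against 67, a difference of -0.06. The PMVK spot was uneven: its pixel means, without background subtraction, were 253 on the low and 567 on the high efficiency array, and with the pixel mean the gene stood at -1.34 relative to all genes. A dimmer PMVK probe, at 12 against 8, was above background on the low efficiency array only.

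Of the 11 enzymes from squalene to cholesterol, 10 were measured, 7 above and 3 below all genes, with a median near 0 (-0.001). Higher past spot error (background 13.7%) were CYP51A1, DHCR7, FDFT1 and HSD17B7. CYP51A1, which removes a methyl group from lanosterol, read 200 on the low and 142 on the high efficiency array (0.22), and its second probe read 63 against 42 (0.31). DHCR7, the reductase of the last step to cholesterol, read 319 against 224 on its single probe, a difference of 0.24. FDFT1, squalene synthase, read 944 against 696 (0.16), with its other probes at 311 against 259 and 55 against 43, differences of -0.01 and 0.08. All probes of CYP51A1 and FDFT1 thus lay above the median of all genes.

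HSD17B7 was the member farthest from all genes, and its probes contradicted each other. This enzyme reduces a keto group on sterol intermediates and also acts on steroid hormones. Its brighter probe read 103 on the low and 53 on the high efficiency array, a difference of 0.68 or 1.61-fold, above 98.4% of genes. The dimmer probe read 23 on the low and 28 on the high efficiency array, a difference of -0.56, and the mean over both probes was 0.06. With normexp background correction the gene stood at 0.39 relative to all genes in place of 0.72.

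Downstream of lanosterol, EBP and SC5D lay on the lower side. EBP, a sterol isomerase, read 625 on the low and 610 on the high efficiency array, a difference of -0.24, and its second probe, at 161 against 158, had -0.25. SC5D, the desaturase that acts after EBP, read 117 against 112 (-0.21), and 27 against 23 at its other probe (-0.04), within spot error. Among members past spot error with several probes, those of EBP lay closest together.

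The other enzymes of this stretch sat at the level of all genes by their brightest probe. SQLE, squalene epoxidase, a rate-limiting enzyme of the route, read 804 on the low and 673 on the high efficiency array, a difference of -0.02. MSMO1, the methyl sterol oxidase, read 297 against 258 (-0.07), with 3 further probes between 0.003 and 0.26. NSDHL, which works with MSMO1 on the methyl groups, read 114 against 95 (-0.01), and 41 against 33 at its second probe (0.04). LSS, which closes the rings to lanosterol, read 56 against 46 (0.01), while its dimmer probe read 22 against 13 (0.48). TM7SF2, a sterol reductase, was above background in low feed efficiency only, at 18 against 9. Against the lowest signal above background on the other array it was at least 1.35-fold higher there, with no allowance made for spot error.

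Of the sterol regulators, SREBF2 lay on the lower side past spot error and INSIG1 above all genes within spot error. SREBF2 read 13244 on the low and 15205 on the high efficiency array, a difference of -0.47 or 1.39-fold higher in high feed efficiency, with 6.3% of genes lower. A second probe of SREBF2, at 696 against 684, had -0.25, so both detected probes lay below all genes. Another lay below background on both arrays, and the remaining SREBF2 probe was left out because it was flagged as not found. INSIG1 read 112 against 87, a difference of 0.09.

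**Figure D2:**
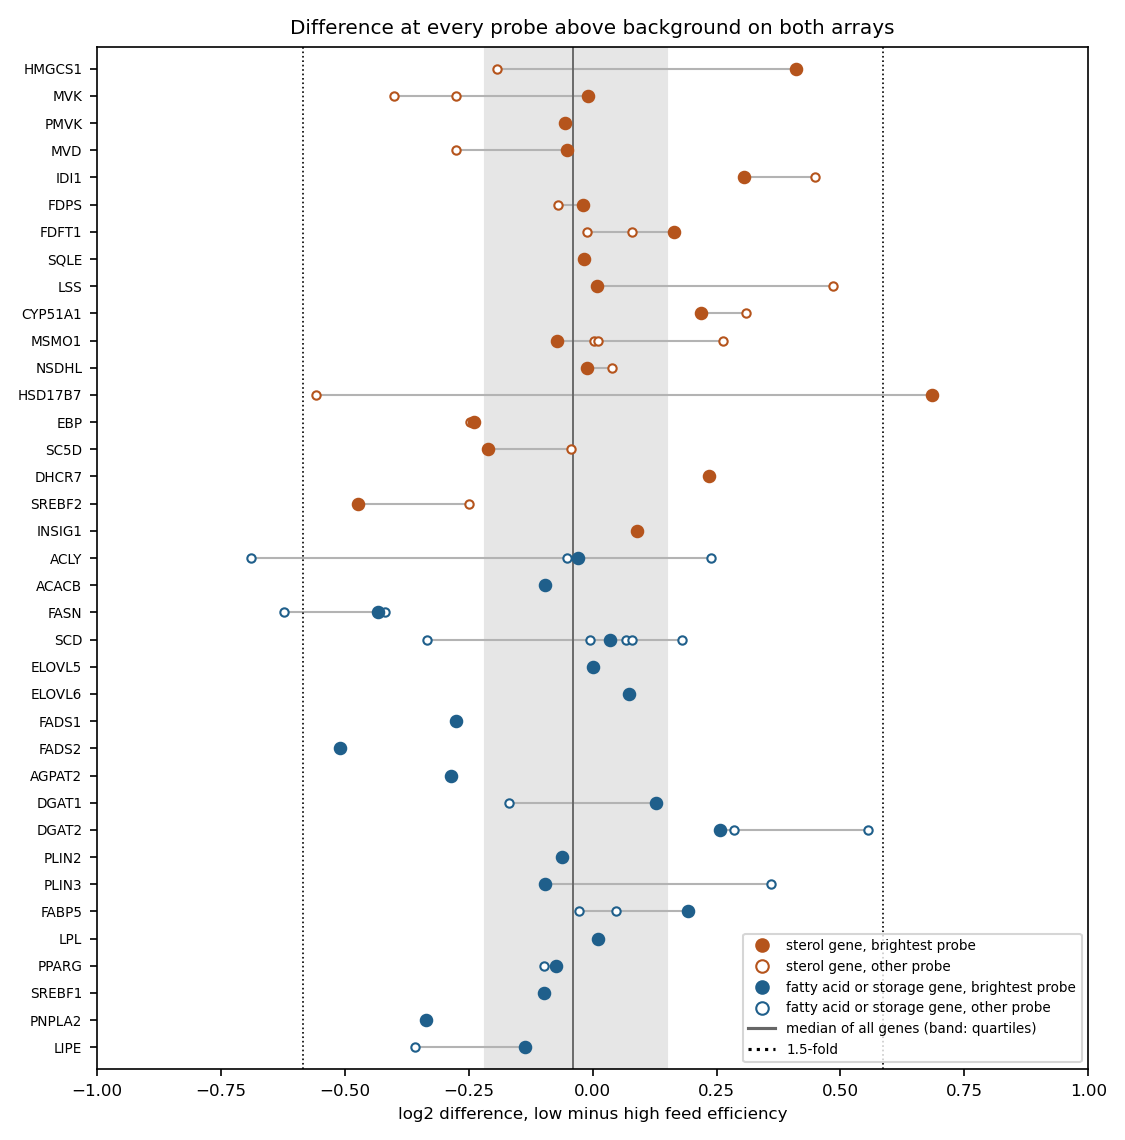
log2 difference between low and high feed efficiency (low minus high) (horizontal) at each probe above background on both arrays, for the 37 measured genes (orange sterol, blue fatty acid and storage; filled, brightest probe; open, other probes; the grey line and band are the median and quartiles of all genes, the dotted lines 1.5-fold). IDI1, CYP51A1 and DGAT2 have all probes to the right of the band and SREBF2, EBP and FASN all to its left, while HSD17B7, HMGCS1, ACLY and PLIN3 have probes on both sides of the grey line.

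In fatty acid synthesis the enzyme that builds the chain was lower. ACLY and ACACB were near all genes by their brightest probe, and ACACA was not above background on either array. FASN, fatty acid synthase, which makes palmitate, read 1311 on the low and 1462 on the high efficiency array, a difference of -0.43 or 1.35-fold higher in high feed efficiency. The second FASN probe read 1000 against 1105 (-0.42) and a dim one 11 against 14 (-0.62), so all detected probes lay below all genes, and 8.0% of genes had a lower difference than the brightest. ACLY, which makes cytosolic acetyl-CoA from citrate for both sterol and fatty acid synthesis, read 669 against 564 (-0.03) and 545 against 467 (-0.05) at its brighter probes. Its dim probes, at 20 against 14 and 12 against 16, had 0.24 and -0.69, on either side. Acetyl-CoA carboxylase makes the malonyl-CoA that FASN uses. Of its genes ACACA was not well above background on any of its 3 probes, the brightest reading 10 against 8, and ACACB was above background on 1 of 12 probes, at 43 against 38 (-0.10).

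Desaturases and elongases, which shape the fatty acid chain, were near all genes where they read clearly. SCD, the stearoyl-CoA desaturase that makes oleate, read 259 on the low and 209 on the high efficiency array, a difference of 0.03. Its 6 detected probes ran from -0.33 to 0.18, and 5 of the 6 lay above all genes. ELOVL5, an elongase of polyunsaturated fatty acids, read 293 against 242, a difference of 0.001. The other 3 members lay just above background. FADS2, a desaturase of the polyunsaturated route, read 17 on the low and 20 on the high efficiency array, a difference of -0.51. FADS1, the desaturase that follows it, read 13 on both arrays (-0.27), and ELOVL6, an elongase of palmitate, 14 against 11 (0.07). Further ELOVL6 probes, at 12 against 8 and 15 against 5, were above background on the low efficiency array only. At these intensities a change of a few units decides the value, and none of these 3 genes had a probe above the stricter background limit of 10 robust SDs on both arrays.

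Triglyceride assembly held members on both sides. DGAT2, which adds the last fatty acid to make triglyceride, was higher in low feed efficiency at each of its 3 probes. They read 8602 on the low and 5954 on the high efficiency array (0.26), 3836 against 2603 (0.28) and 3916 against 2201 (0.56). This was the only fatty acid or storage gene higher past spot error. AGPAT2, the acyltransferase that makes phosphatidic acid, read 408 against 411 on a single probe, a difference of -0.29. DGAT1, which catalyses the same step as DGAT2, read 37 against 28 (0.13) and, at a dim probe, 14 against 13 (-0.17), both within spot error. GPAM and LPIN1, which act earlier in the same route, were not well above background on either array: their brightest probes read 10 on both arrays and 9 against 10.

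The 4 measured genes of lipid droplets and lipolysis all lay below all genes by their brightest probe, though 3 of them within spot error. PNPLA2, the triglyceride lipase that starts lipolysis, read 257 on the low and 268 on the high efficiency array, a difference of -0.34. LIPE, hormone-sensitive lipase, read 22 against 20 (-0.14) and 17 against 18 (-0.36). The droplet coat gene PLIN2 read 211 against 182, a difference of -0.06. PLIN3, another droplet coat gene, read 86 against 76 (-0.10), and 45 against 29 at its second probe (0.36), the other side of all genes.

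Of the genes for uptake and intracellular carriage, FABP4 and CD36 were not well above background on either array, and FABP5 and LPL were above it on both. FABP4, the fatty acid carrier of adipocytes, read 3 against 2 on its single probe. CD36, a fatty acid and lipoprotein receptor, read at most 9 on any of its 4 probes; the accession of 2 of these belongs to another locus in the gene table, and they counted here by their array name. FABP5, a carrier also made in leukocytes, read 47 on the low and 34 on the high efficiency array, a difference of 0.19, with its other probes at 19 against 16 (-0.03) and 15 against 12 (0.05). All FABP5 probes lay above all genes but within spot error. LPL, which frees fatty acids from lipoproteins, read 50 against 41 (0.01). Another LPL probe, at 11 against 8, was above background on the low efficiency array only.

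The regulators of lipogenesis lay close to all genes. PPARG, which drives fat cell formation and is also active in macrophages, read 54 on the low and 47 on the high efficiency array (-0.07), and 52 against 46 at its second probe (-0.10). SREBF1 read 52 against 46, a difference of -0.10, and its other probe, at 11 against 10, was above background on the low efficiency array only. Neither gene was past spot error.

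The sterol genes had a median difference of -0.01, which is 0.03 above all genes, and the fatty acid and storage genes -0.07, which is 0.04 below. The gap between the medians was 0.06, and 0.03 to 0.17 across 14 other ways of processing the arrays. The ranges overlapped, from -0.47 to 0.68 for sterol and from -0.51 to 0.26 for fatty acid and storage genes. Above all genes were 12 of 18 sterol members and 8 of 19 fatty acid and storage members. Past the quartiles of all genes, beyond which 25% of genes lie on each side, were 6 sterol members on the higher side and 2 on the lower, and 2 and 5 fatty acid and storage members. Brightness differed too: 12 of the 18 sterol but 8 of the 19 fatty acid and storage members were bright. Among bright genes, of which 18.0% were past spot error on the higher and 23.4% on the lower side, there were 5 and 2 of 12 sterol members and 1 and 3 of 8 fatty acid and storage members. Among dim genes, where the shares were 9.44% and 6.48%, the only members past spot error were HSD17B7, higher, of 6 sterol members and FADS2, lower, of 11 fatty acid and storage members. Against all bright genes the medians were 0.06 and 0.03 above, and against all dim genes -0.002 and -0.10, with the last resting on 11 members.

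**Figure D3:**
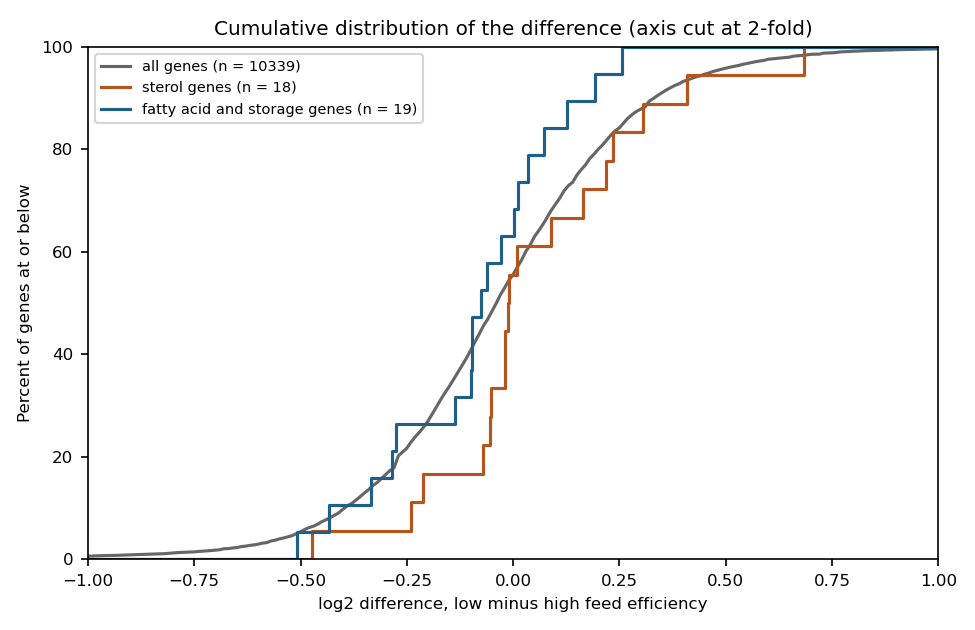
Percent of genes (vertical) at or below each log2 difference between low and high feed efficiency (low minus high) (horizontal), for the 18 measured sterol genes (orange), the 19 measured fatty acid and storage genes (blue) and all 10339 genes (grey). The orange steps run to the right of the blue ones, and both cross the grey curve, with medians of -0.01, -0.07 and -0.04.

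Of 23 members with several detected probes, 7 had every probe above all genes and 7 every probe below, where 30.5% and 28.4% of 4995 such genes did. The 7 above were IDI1, FDFT1, LSS, CYP51A1 and NSDHL among sterol genes and DGAT2 and FABP5 among the others. The 7 below were MVD, EBP, SC5D and SREBF2, and FASN, PPARG and LIPE. The share that ran 1 way, 64.3% of sterol and 55.6% of fatty acid and storage genes, was near the 58.8% of all genes. The median gap between the 2 brightest probes was 0.20 for sterol genes, 0.03 for fatty acid and storage genes and 0.16 for all genes.

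Of 21 genes of sterol regulation, uptake and efflux 19 were measured, 11 above and 8 below all genes, none 1.5-fold apart, with a median of 0.02. Farthest from 0 was SOAT1, which esterifies cholesterol for storage, with 197 on the low and 126 on the high efficiency array (0.37), by a single detected probe. Of 33 further genes of fatty acid activation, elongation, glycerolipids and droplets 27 were measured, 10 above and 17 below all genes, with a median of -0.18. None was 1.5-fold higher (background 2.68%) and 2 were 1.5-fold lower (background 3.14%). These were PLIN5, a droplet coat gene, at 1476 against 2131 (-0.80), and MGLL, which splits monoglycerides, at 46 against 61 (-0.68), each by a single detected probe.

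Of the blood cell markers, all 7 neutrophil, 8 monocyte and 8 T cell genes were above background on both arrays. So were all 6 B cell and 7 natural killer cell markers, 5 of 8 erythroid and 5 of 7 platelet markers. The brightest SLC4A1 probe read 4 against 8. That of EPB42 read 9 against 11, above background on the high efficiency array only. No probe was used for GYPB, GP9 and GP1BB. Of 7 adipocyte markers only CIDEA and RETN were above background on both arrays, and adiponectin (ADIPOQ) and leptin (LEP) read 5 against 2 and 3 against 7. Of 6 hepatocyte markers only APOA1 and SERPINA1 were, and ALB read 8 against 5. Relative to all genes, neutrophil markers had a median of 0.14, with 5 above and 2 below, and platelet markers 0.18, with 3 above and 2 below. The medians were -0.25 for natural killer (1 above, 6 below), -0.13 for T cell (2 above, 6 below), -0.12 for monocyte (3 above, 5 below), -0.06 for B cell (3 on each side) and -0.01 for erythroid markers (2 above, 3 below). The erythroid median hides a wide spread, with differences of single markers from -1.42 to 0.26. Summed levels, in multiples of each array's 75th percentile, add probes of different brightness and so follow the brightest ones. On the low against the high efficiency array they were 797 and 703 for neutrophil, 276 and 259 for platelet and 342 and 309 for erythroid markers. They were 153 and 194 for natural killer, 262 and 316 for T cell, 303 and 346 for monocyte and 67.3 and 71.4 for B cell markers. Each of these 7 lists held genes on both sides of all genes. Their part in the differences of the lipid genes was not tested.

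Across the 14 alternatives the sterol median stayed above all genes, at 0.02 to 0.09. The fatty acid and storage median stayed below, at -0.10 to -0.02, except at 0.02 when only probes above the median signal were used, which left 8 of its members. Of the 37 measured members 26 kept their side of all genes under each alternative that measured them, 13 above and 13 below. All 13 members past spot error were among them. With the spot error limit kept from the reported processing and not recomputed, 7 of the 13 came within it under at least 1 alternative. These were EBP under 7 alternatives, FADS2 under 3, FDFT1, HSD17B7, AGPAT2 and PNPLA2 under 2 each and HMGCS1 under 1. The other 6, IDI1, CYP51A1, DHCR7, SREBF2, FASN and DGAT2, stayed past it under all 14. Not all 14 could move a member, however. Scaling to the detected-probe median or to spike-ins shifts all genes alike, so it left each value relative to all genes unchanged. No member probe had saturated pixels, so leaving out saturated spots could hardly act on members either. Averaged over its probes FDFT1 stood at 0.11 and HMGCS1 at 0.14 relative to all genes, and with normexp EBP stood at -0.11 and AGPAT2 at -0.18.

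**Figure D4:**
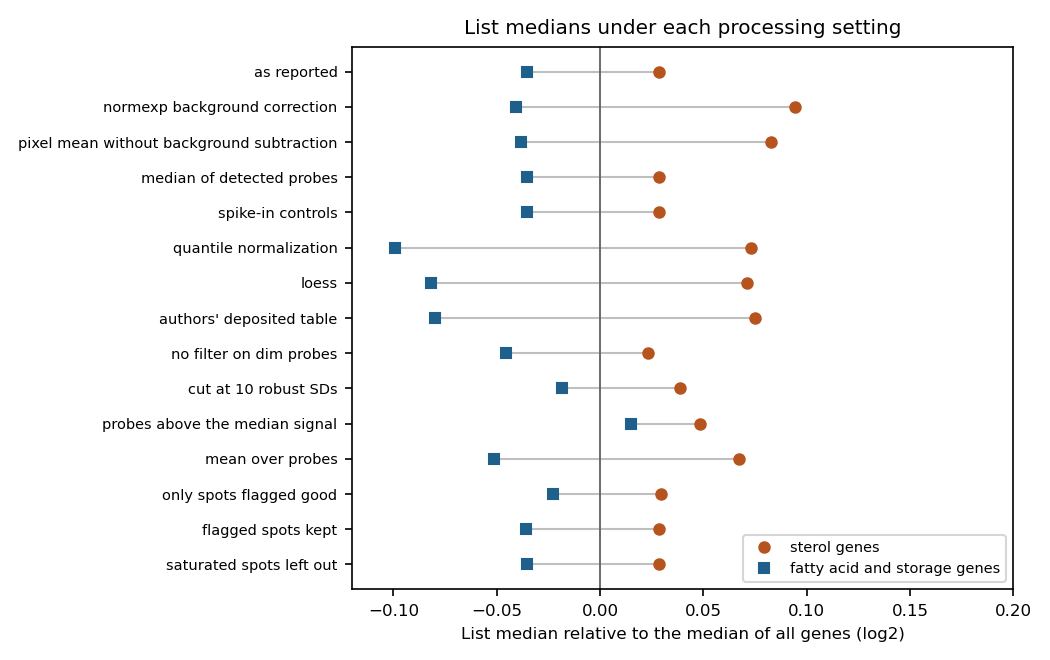
Median of the sterol genes (orange circles) and of the fatty acid and storage genes (blue squares) relative to the median of all genes (horizontal, log2) as reported and under 14 other processing settings (rows). The circles lie right of 0 in every row, from 0.02 to 0.09, and the squares left of 0 except in the row for probes above the median signal.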

How the data were processed

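The deposited scanner files give spot intensity at 532 nm, as the pixel median minus the mean of negative control spots, a flag score and the percent of pixels that were saturated, written by GenePix Pro 6.1.0.4 per the file headers. The authors deposited a further table of log2 values whose normalization is unstated; they followed the scanner ranks (Spearman's rho 1.00) only after a move by 1 row, and served as an alternative. The genome build is not stated there.

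Control spots and bright spots flagged as not found were left out. Each array was scaled to its 75th percentile, and log2 was taken. Background was the median of 153 negative controls plus 3 robust SDs, 10.9 on both arrays; 56.5% of probes passed on the low and 52.7% on the high efficiency array. Of the probes that passed on both arrays, the brightest stood for its gene. Probes were named by RefSeq accession (109 of 119 member probes) or symbol (10), with the gene table of ARS-UCD2.0. The accession of 2 member probes named another gene, and these counted by their array name. Python 3.11.15, pandas 2.3.3 and limma 3.58.1 were used, and the calculation was tested on simulated data. Members, lists and roles were chosen with earlier results of these data known; all members are named, and of the further lists the 2 genes farthest from 0. One gene that this rule names is not reported here. No probe sequence was used here. The number of arrays limits the precision.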

Additional observations from a re-analysis of the deposited data

How the results depend on the processing

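No paired analysis was possible because each group has 1 array. Alternatives were normexp background correction with an offset of 50, the pixel mean, 4 other scalings (detected-probe median, spike-ins, quantile, loess), the authors' table, averaging over probes, 3 ways to filter dim probes, 2 treatments of flags and leaving out saturated spots; bright and dim genes apart were added after seeing the data. The gap between the list medians was 0.06 as reported, 0.17 with quantile normalization, 0.155 in the authors' table, 0.15 with loess, 0.14 with normexp, 0.12 with the pixel mean and with the mean over probes, and 0.03 with probes above the median signal. The count of members 2-fold apart was 1 in place of 0 with normexp and with the pixel mean (PMVK) and with spike-in scaling (HSD17B7). The count 1.5-fold apart was 1 as reported, 4 with spike-in scaling (HMGCS1, IDI1, HSD17B7, DGAT2), 2 with no filter on dim probes and 0 with the mean over probes and with probes above the median signal. With normexp and with the pixel mean it stayed 1, but the gene was PMVK (-1.23 and -1.36) in place of HSD17B7. Spike-in scaling, on 7 control probes, moved every gene up by 0.34, so that 19 members turned from negative to positive while their place among all genes stayed. With that scaling 184 of all genes were 2-fold higher and 20 were 2-fold lower, where 97 were 2-fold apart as reported. Under normexp FADS2 stood at -0.24 relative to all genes in place of -0.47, and PNPLA2 at -0.15 in place of -0.30; as the mean over probes HMGCS1 stood at 0.14 in place of 0.45. Members that changed side under some alternative were MVK, MVD, FDPS, LSS, MSMO1, NSDHL, ACLY, ELOVL6, PLIN2, PLIN3 and LPL, all within spot error.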
